A study of Mus musculus with 4 samples.

Results

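The genes described here are 10 members of the Bcl2 family that are not counted among the classical direct targets of p53. They are Bcl2, Bcl2l1, Bcl2l2, Mcl1, Bak1, Bid, Bad, Bik, Bmf and Bcl2l11. The genes were listed with earlier results of these data known. Their probes were taken by gene name alone, with no measured value in the rule. Every probe outside the control spots that carries one of these names was used. This gave 14 probes of 39429, for 10 of 31829 gene names. Bcl2l1, Bcl2l2, Mcl1 and Bad are read by 2 probes each and the other 6 genes by 1 probe each.

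Total RNA of mouse embryonic fibroblasts (MEFs, primary cells grown from the tissue of whole embryos) was hybridised to 4 one-color Agilent arrays after culture in logarithmic growth. All cells were from C57BL/6J mice and received no treatment. The arrays are labelled G2KO (genotype CycG2-/-), G2WT (CycG2+/+), DKO (CycG1-/-CycG2-/-, labelled G1G2KO in the sample descriptions) and G1G2WT (CycG1+/+CycG2+/+), with 1 array each. CycG1 and CycG2 are the cyclin G proteins encoded by Ccng1 and Ccng2, and the Ccng1 allele of the DKO mice lacks all of its coding exons. The labels do not say how many embryos each RNA came from, so each genotype is 1 preparation, and a labelled comparison sets 1 array against 1 array. In RNA from a mixed culture, fewer cells of a type and less RNA per cell cannot be told apart.

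Proteins of this family decide whether the outer membrane of the mitochondrion is opened during apoptosis. Bcl2, Bcl-xL (Bcl2l1), Bcl-w (Bcl2l2) and Mcl1 keep the membrane closed, Bak (Bak1) and its relative Bax form the pores, and the BH3-only proteins Bid, Bad, Bik, Bmf and Bim (Bcl2l11) carry death signals to the other members. The BH3-only proteins are known as sensors of different stresses, such as loss of anchorage for Bmf, loss of growth factors for Bad and Bim, and cleavage by caspase-8 for Bid.

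The sequences of 4 probes are shown because the largest differences, or the dimmest readings, rest on a single probe each. For the probe of Bmf bases 31 to 60 are given, with the stretch AATAAA, the usual form of a polyadenylation signal, in capitals. Whether the messenger RNA is cut after this stretch was not tested. In the probe of Bcl2l11 the capitals mark the stretch that encodes the core of the BH3 motif, through which Bim binds other members. The probes of Bcl2 and Bik are given whole, without capitals, and the Bcl2 probe begins within the stretch that encodes the BH1 region.
Bmf (bases 31 to 60): ggtacagtttttAATAAAaccatttaaagc
Bcl2: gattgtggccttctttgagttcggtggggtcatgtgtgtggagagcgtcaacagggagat
Bik: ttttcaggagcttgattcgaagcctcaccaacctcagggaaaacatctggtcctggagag
Bcl2l11: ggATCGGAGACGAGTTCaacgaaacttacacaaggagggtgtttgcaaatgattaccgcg
In build mm9 these probes lie at chr2:118354496-118354555 on the minus strand (Bmf), chr1:108608970-108609029 on the minus strand (Bcl2), chr15:83374048-83374107 on the plus strand (Bik) and chr2:127972893-127983988 on the plus strand (Bcl2l11). The probe of Bcl2l11 spans an intron, since its 60 bases cover 11096 bases of the genome.

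Signals are given as a multiple of the array's 75th percentile, called the level below. Between 64.9% and 72.2% of the probes were well above background on an array, and no spot was saturated. The targeted genes were examined first. Ccng1 had a level of 1.97 on G2KO, 9.43 on G2WT and 1.66 on G1G2WT, and was not well above background on DKO. Ccng2 had a level of 0.0907 on G2KO, 0.104 on G2WT, 0.0616 on DKO and 0.0804 on G1G2WT. These lay within 2-fold of each other, so the Ccng2 signal gave no check on the label of the G2KO array. Over the 24192 probes that all 4 arrays read well above background, the log2 ratio of G2KO to G1G2WT had an SD of 0.53, against 0.86 for G2KO to G2WT and 1.01 for G1G2WT to G2WT. The array labelled G2KO therefore resembled G1G2WT more than it resembled its own WT, and the arrays labelled WT differed from each other as widely as DKO differed from G1G2WT (SD of 1.02). For this reason the ratio between the WT arrays is given for each of the 10 genes. Among the markers, En2 was 568-fold higher on G2WT than on G2KO, Foxa2 at least 374-fold and Sox2 at least 360-fold, while Pdgfra was at least 244-fold higher on G2KO. The study gives all of these genes the opposite direction in G2KO MEFs. Values of this comparison are printed as the labels give them. With these labels exchanged, each log2 ratio of G2KO to G2WT would change sign, and its counts of higher and lower genes would trade places. The array labelled G2KO would then stand for WT in each ratio between the WT arrays. This reading is printed for some genes and counts only, and the other directions of this comparison hold only as labelled.

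The 12 fibroblast markers summed to levels of 402 to 598 over the 4 arrays, but single markers differed widely. For DKO over G1G2WT, 1 was at least 2-fold higher (10.6% of all genes were) and 6 were lower (9.63%). For G2KO over G2WT 6 were higher (8.73% of all genes) and 0 lower (8.39%). Postn was 186-fold and Thy1 18.0-fold lower on DKO than on G1G2WT, and Pdgfra and Lum were not well above background on G2WT. The 12 mesothelial markers summed to 149.7 on DKO and to 0.702 to 1.72 on the other arrays, where Wt1 and Upk3b were not well above background. The 10 neural progenitor markers summed to 47.8 on G2WT and to 1.495 to 5.40 elsewhere. For G2KO over G2WT 9 of them had a ratio, of which 1 was at least 2-fold higher (8.73% of all genes) and 5 were lower (8.39%). Levels of the 5 smooth muscle markers summed to 42.5 on DKO and to 214 to 361 on the others. For DKO over G1G2WT 4 of them had a ratio, of which 1 was at least 2-fold higher (10.6% of all genes) and 2 were lower (9.63%). Sums were 3.07 to 4.43 for 5 endothelial markers. For 5 macrophage markers they were 3.64 on DKO, of which Cd14 made up 2.87, and 1.03 to 1.29 elsewhere. The part of these markers in the values of the Bcl2 family was not tested.

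Of the 10 genes, 9 were well above background on all 4 arrays, and Bik was so on 2. The order of the arrays was not shared. The level was highest on G2WT for 5 genes, on DKO for 3 and on G2KO for 2, and it was lowest on G1G2WT for 4, on DKO for 3, on G2KO for 2 and on G2WT for 1.

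**Figure D1:**
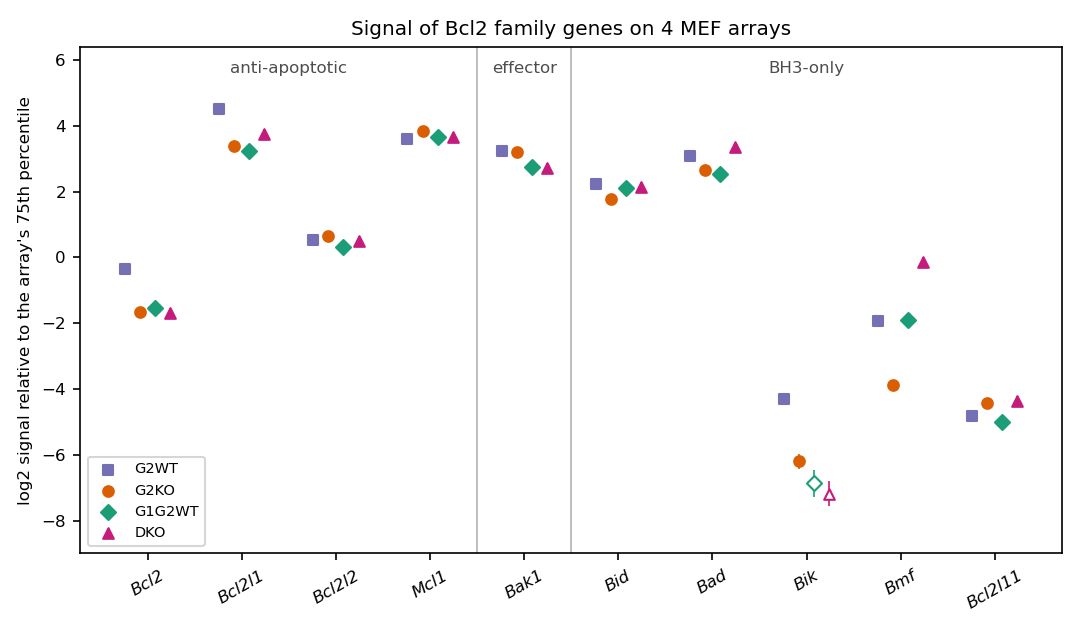
Level of each gene on a log2 scale against the array's 75th percentile (vertical axis), with 1 symbol for each of the 4 arrays and bars for the scanner software's own error. Open symbols are not well above background. Bmf covers the widest range, from 0.0683 on G2KO to 0.916 on DKO, and the G2WT symbols of Bcl2, Bcl2l1 and Bik stand above the rest.

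The anti-apoptotic genes were compared first. Bcl2, the founding member of the family, had a level of 0.319 on G2KO, 0.785 on G2WT, 0.311 on DKO and 0.343 on G1G2WT. G2WT was high, and the other 3 arrays lay close together. The log2 ratio was -0.14 ± 0.20 for DKO over G1G2WT, -1.30 ± 0.20 for G2KO over G2WT and -1.19 ± 0.20 for G1G2WT over G2WT, where the error is that of the scanner software for a ratio of 2 spots and leaves out any difference between cultures. The lower signal on G2KO was thus of the same size as the difference between the arrays labelled WT, and against G1G2WT the ratio of G2KO was -0.11 ± 0.20. The files list only transcript variant 2 of Bcl2 for this probe.

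Bcl2l1 encodes Bcl-xL, the main long-lived guardian of the mitochondrion in many cells. Its brighter probe (chr2:152606404-152606463, minus strand) had a level of 10.4 on G2KO, 23.1 on G2WT, 13.6 on DKO and 9.41 on G1G2WT. Its second probe lies nearer the start of the transcript, at chr2:152655185-152655244, and had a level of 0.139 on G2KO, 0.406 on G2WT, 0.178 on DKO and 0.132 on G1G2WT. Both probes placed the arrays in the same order, with G2WT far above the rest and DKO second. For G2KO over G2WT the log2 ratio was -1.15 ± 0.20 by the brighter probe and -1.55 by the second. For G1G2WT over G2WT it was -1.29 and -1.62, so G2KO did not stand apart from the other WT array, over which its ratio was 0.14 and 0.08. For DKO over G1G2WT the ratio was 0.53 and 0.43, inside 2-fold, and against G2WT it was -0.77 and -1.19.

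Bcl2l2 encodes Bcl-w, a close relative of Bcl-xL. Its brighter probe (chr14:55506840-55506899, plus strand) had a level of 1.57 on G2KO, 1.44 on G2WT, 1.42 on DKO and 1.23 on G1G2WT. The second probe gave 0.159, 0.133, 0.139 and 0.114 in the same order. The arrays were nearly level. The log2 ratio for DKO over G1G2WT was 0.21 by the brighter probe and 0.29 by the second, and that for G2KO over G2WT was 0.13 and 0.25. The WT arrays differed by -0.23 by either probe, about as much as the software's error of a ratio.

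Mcl1 is the short-lived anti-apoptotic member, whose protein is degraded within hours. The brighter probe (chr3:95466855-95466914, plus strand) had a level of 14.4 on G2KO, 12.1 on G2WT, 12.8 on DKO and 12.6 on G1G2WT, and by it no pair of arrays differed by 2-fold. The second probe (chr3:95465543-95465602) had a level of 3.26 on G2KO, 3.94 on G2WT, 1.80 on DKO and 2.23 on G1G2WT. By that probe both arrays of the G2KO comparison were above both arrays of the DKO comparison. The log2 ratio of G1G2WT over G2WT was 0.06 by the brighter probe and -0.82 by the second, a difference of 0.88 ± 0.29 between the probes. Within the labelled comparisons the probes lay closer, at 0.02 and -0.31 for DKO over G1G2WT and at 0.25 and -0.28 for G2KO over G2WT. The statement that Mcl1 was level across the arrays therefore holds for the brighter probe, which stands for the gene in the counts, and not for the other.

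**Figure D2:**
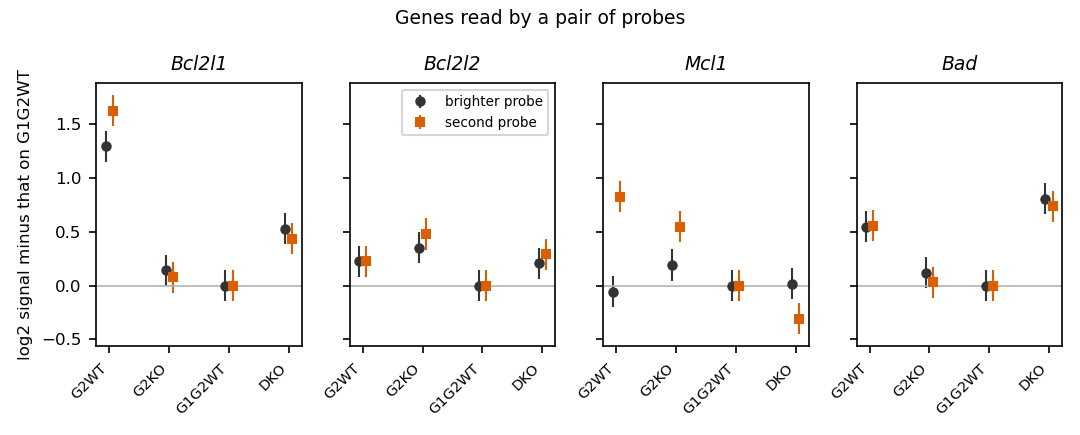
Log2 level on each array minus that on G1G2WT (vertical axis) for the 4 genes with a pair of probes, with circles for the brighter probe, squares for the second and bars for the software's error. The probes of Bcl2l1, Bcl2l2 and Bad move together, and those of Mcl1 part on G2WT (-0.06 and 0.82).

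Bak1, the pore-forming member of the set, had a level of 9.28 on G2KO, 9.48 on G2WT, 6.57 on DKO and 6.80 on G1G2WT (chr17:27156807-27156866, minus strand). Within each comparison the arrays were level, with log2 ratios of -0.05 ± 0.20 for DKO over G1G2WT and -0.03 ± 0.20 for G2KO over G2WT. The arrays of the G2KO comparison were both above those of the DKO comparison, by -0.48 ± 0.20 for G1G2WT over G2WT.

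Among the BH3-only genes, Bmf had the widest range of all 10 genes. Bmf encodes a protein that is held at the actin and myosin skeleton and is released when cells detach. Its level was 0.0683 on G2KO, 0.262 on G2WT, 0.916 on DKO and 0.269 on G1G2WT. The arrays labelled WT were alike, with a log2 ratio of 0.04 ± 0.20 between them, and 95.4% of genes differed at least that much between these arrays. As labelled, DKO was above both WT arrays and G2KO was below both. For DKO over G1G2WT the log2 ratio was 1.77 ± 0.20, or 3.41-fold higher, and 9.7% of genes had a ratio of at least that size in either direction. For G2KO over G2WT it was -1.94 ± 0.21, or 3.83-fold lower, a size reached by 6.0% of genes. Setting each knockout against the other WT array gave 1.81 for DKO and -1.98 for G2KO. As labelled, Bmf was the only one of the 10 genes past 2-fold against either WT array in both knockout arrays. With the G2KO and G2WT labels exchanged, the WT arrays would be at 0.0683 and 0.269 and would not be alike (1.98 on the log2 scale). G2KO would then be 1.94 above its own WT and level with G1G2WT, while DKO would remain the highest array. The full range from G2KO to DKO was 3.75 on the log2 scale.

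Bad binds and neutralises Bcl-xL and Bcl2, and is inactivated by phosphorylation downstream of growth factor receptors. Its brighter probe (chr19:7026323-7026382, plus strand) had a level of 6.32 on G2KO, 8.51 on G2WT, 10.2 on DKO and 5.83 on G1G2WT. The second probe, which spans an exon junction, had a level of 0.411 on G2KO, 0.593 on G2WT, 0.671 on DKO and 0.403 on G1G2WT. DKO was highest by both probes, and G2WT was second. The log2 ratio for DKO over G1G2WT was 0.81 ± 0.20 by the brighter probe and 0.74 by the second, inside 2-fold, and against G2WT it was 0.26 and 0.18. For G2KO over G2WT it was -0.43 by the brighter probe (0.07 without scaling of the arrays) and -0.53 by the second, close to the -0.55 and -0.56 between the WT arrays.

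Bid links death receptors to the mitochondrion. Its level was 3.43 on G2KO, 4.75 on G2WT, 4.45 on DKO and 4.35 on G1G2WT (chr6:120843464-120843523, minus strand). G2KO was the lowest array and the other 3 were level. The log2 ratio was 0.03 ± 0.20 for DKO over G1G2WT and -0.47 ± 0.20 for G2KO over G2WT, where it was 0.02 without scaling of the arrays. Between the WT arrays it was -0.13 ± 0.20.

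Bcl2l11 encodes Bim, which binds every anti-apoptotic member. It was dim but well above background on all 4 arrays, with a level of 0.0463 on G2KO, 0.0357 on G2WT, 0.0484 on DKO and 0.0313 on G1G2WT. As labelled, both knockout arrays were above both WT arrays, by less than 2-fold. The log2 ratio was 0.63 ± 0.23 for DKO over G1G2WT and 0.37 ± 0.22 for G2KO over G2WT. With normexp background correction the latter was 0.12. The WT arrays differed by -0.19 ± 0.23. With the G2KO and G2WT labels exchanged, G2KO would be below its own WT, at 0.0357 against 0.0463.

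Bik, a BH3-only protein of the endoplasmic reticulum, was well above background only on G2KO, at 0.0136, and on G2WT, at 0.0505. It was not well above background on DKO (0.00688) or on G1G2WT (0.00852), so no ratio was given for DKO over G1G2WT. For G2KO over G2WT the log2 ratio was -1.90 ± 0.27. G1G2WT was at least 4.94-fold lower than G2WT, so that Bik, like Bcl2 and Bcl2l1, was highest on G2WT. With normexp background correction these log2 ratios shrank to -1.002 for G2KO over G2WT and to -0.94, inside 2-fold, for G1G2WT over G2WT. Against G1G2WT, the array labelled G2KO was at least 1.33-fold higher.

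The labelled comparisons ask what loss of CycG2, or of both cyclin G proteins, changes in growing MEFs. Of the 9 genes with a ratio for DKO over G1G2WT, 1 rose at least 2-fold (Bmf) and 0 fell, while 20.3% of all genes with a ratio were past 2-fold (10.6% higher and 9.63% lower). The 9 genes had a median log2 ratio of 0.21, against 0.03 for all genes, with 7 above 0 and 2 below. Of all genes with a ratio, 11994 were above 0 and 10884 below. The median of the 4 anti-apoptotic genes was 0.11 and that of the 4 BH3-only genes with a ratio was 0.72. Each of the latter was above 0, but Bid was at 0.03 ± 0.20, and at -0.04 without scaling of the arrays. Against G2WT, 3 of 5 BH3-only genes were above 0, with a median of 0.26, and the anti-apoptotic median was -0.39. The share of the 9 genes past 2-fold for DKO over G1G2WT was not above that of all genes.

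For G2KO over G2WT, 4 of 10 genes were at least 2-fold lower (Bcl2, Bcl2l1, Bik and Bmf) and 0 were higher, while 17.1% of all genes were past 2-fold (8.39% lower and 8.73% higher). With the labels exchanged, the same 4 genes would be higher and 0 lower. The median log2 ratio was -0.45, against -0.17 for all genes. For G1G2WT over G2WT, 3 of 10 genes were at least 2-fold lower (Bcl2, Bcl2l1 and Bik) and 0 were higher, while 21.6% of all genes were past 2-fold (11.6% higher and 9.93% lower). These comparisons share the G2WT array. With G1G2WT in place of G2WT, 1 of 10 genes was past 2-fold on the array labelled G2KO (Bmf), against 9.18% of all genes (4.32% higher and 4.87% lower), and the median log2 ratio was 0.17. For DKO over G2WT, 3 of 10 genes were past 2-fold, with Bmf higher and Bcl2 and Bik lower, against 25.9% of all genes (14% higher and 11.9% lower). This count rests on the brighter probes, since the second probes of Bcl2l1 (-1.19) and Mcl1 (-1.13) were also past 2-fold lower. Without scaling of the arrays, Bcl2 (-0.80) and Bcl2l1 (-0.66) were inside 2-fold for G2KO over G2WT, and the median of all genes moved from -0.17 to 0.33.

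**Figure D3:**
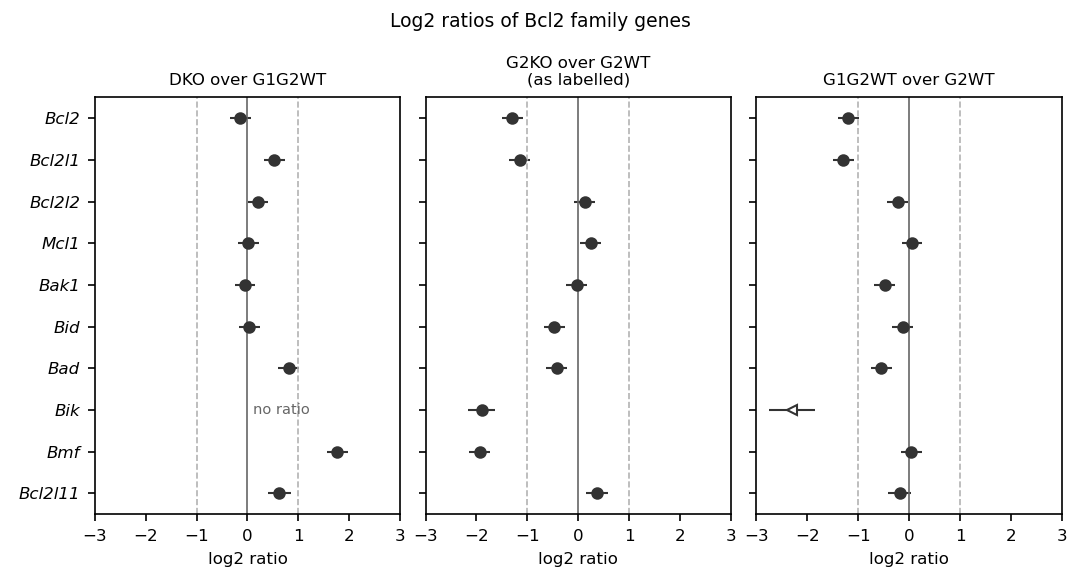
Log2 ratio (horizontal axis) of the 10 genes for DKO over G1G2WT, G2KO over G2WT and G1G2WT over G2WT, with bars for the software's error and dashed lines at 2-fold. The open triangle is an upper limit. Bmf is at 1.77, -1.94 and 0.04, while Bcl2, Bcl2l1 and Bik are as low in the comparison of the WT arrays as in that of G2KO.

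The WT arrays were also taken as 1 group of 2, with each knockout array alone, and fitted with limma across 30328 probes. With 1 residual degree of freedom, the spread of the WT arrays had to stand for that of each knockout. The fit took the labels as given. With the G2KO and G2WT labels exchanged, the WT pair would differ by 1.98 for Bmf on the log2 scale, and that grouping was not fitted. No probe had an adjusted p below 0.05 in either comparison, with 2490 probes for DKO and 473 for G2KO at an unadjusted p below 0.05. Of the 14 probes of the set, 1 was among them in each comparison, that of Bmf, with an adjusted p by limma of 0.467 for DKO and 0.99997 for G2KO.

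Relatives of these genes and the machinery around them were read from 5 lists. Of 16 other Bcl2 family genes on the array, 13 had a ratio for DKO over G1G2WT, of which 3 rose and 1 fell at least 2-fold, with a median of 0.50, beside 20.3% of all genes past 2-fold. Against G2WT, 1 was higher (14% of all genes were) and 3 were lower (11.9%), with a median of -0.06. Bax, the pore-forming relative of Bak and a target of p53, had a level of 2.38 on G2KO, 6.23 on G2WT, 4.98 on DKO and 1.103 on G1G2WT. As labelled, the WT arrays were at opposite ends of this range. The log2 ratio of Bax was 2.18 for DKO over G1G2WT and -1.39 for G2KO over G2WT, beside -2.50 between the arrays labelled WT. With the G2KO and G2WT labels exchanged, the WT arrays would be the lowest, at 2.38 and 1.103, and the knockout arrays would be at 6.23 and 4.98.

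The p53-induced BH3-only gene Bbc3, which encodes Puma, had a level of 0.966 on G2KO, 1.49 on G2WT, 2.50 on DKO and 0.852 on G1G2WT. DKO was highest, 1.55 above G1G2WT and 0.74 above G2WT on the log2 scale, and the WT arrays differed by -0.81. Pmaip1, which encodes the BH3-only protein Noxa and is also induced by p53, had a level of 1.52 on G2KO, 1.53 on G2WT, 1.46 on DKO and 0.891 on G1G2WT, and its log2 ratios were 0.72 for DKO over G1G2WT, -0.01 for G2KO over G2WT and -0.78 between the WT arrays. G1G2WT was the lowest array for all 3 of these genes, whereas Bmf was alike on the arrays labelled WT. Bcl2l15 was at least 6.96-fold higher on DKO, with a level of 0.0712 there, and was not well above background on G1G2WT. In the G2KO comparison, 1 of 13 genes of the list was higher and 2 were lower past 2-fold, with a median of -0.37. Of all genes, 8.73% were higher and 8.39% lower.

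Downstream of the mitochondrion, the list of apoptosome and caspase genes had 16 members with a ratio for DKO over G1G2WT. At least 2-fold, 6 rose (10.6% of all genes did) and 1 fell (9.63%), with a median of 0.45. Against G2WT, 1 of 17 was higher (14% of all genes were) and 2 were lower (11.9%), with a median of 0.02. For G1G2WT over G2WT 0 were higher (11.6% of all genes) and 4 lower (9.93%). The gene Lrdd, whose protein PIDD assembles the platform that activates caspase-2, had a level of 0.0980 on G2KO, 0.601 on G2WT, 0.608 on DKO and 0.0866 on G1G2WT. DKO and G2WT were high and the other arrays low. The log2 ratio of Lrdd was 2.81 for DKO over G1G2WT and -2.62 for G2KO over G2WT. Between the arrays labelled WT it was -2.80, and DKO over G2WT gave 0.02. With the G2KO and G2WT labels exchanged, the WT arrays would be at 0.0980 and 0.0866 and the knockout arrays at 0.601 and 0.608. In the G2KO comparison 0 of 17 genes of this list were higher and 3 were lower past 2-fold, with a median of -0.43. Of all genes, 8.73% were higher and 8.39% lower.

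The list of IAP proteins, which block caspases, and of their antagonists had 9 genes with a ratio for DKO over G1G2WT, of which 2 rose and 1 fell, with a median of 0.08. Against G2WT, 2 were higher and 3 lower. Past 2-fold, 10.6% of all genes rose and 9.63% fell for DKO over G1G2WT. For DKO over G2WT these shares were 14% and 11.9%. Naip2, a sensor of bacterial proteins in the inflammasome, was well above background on DKO alone, at 0.820, and was at least 80.2-fold higher there than on G1G2WT. Birc3, which encodes cIAP2, had a level of 0.207 on G2KO, 0.0191 on G2WT, 0.150 on DKO and 0.184 on G1G2WT. G2WT was low and the other 3 arrays were alike, so its log2 ratio of 3.44 for G2KO over G2WT stood beside 3.28 between the WT arrays. Sept4, which encodes the XIAP antagonist ARTS among other products, had log2 ratios of 1.45 for DKO over G1G2WT and -2.09 for G2KO over G2WT. Between the WT arrays its ratio was -2.57. Whether the Sept4 probe reads the transcript of ARTS was not tested.

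Of 12 partners of the Bcl2 family at the outer membrane, 1 rose and 0 fell at least 2-fold for DKO over G1G2WT, and none was past 2-fold for G2KO over G2WT. Of 23 regulators of Bcl2 proteins, 0 rose and 3 fell for DKO over G1G2WT, with a median of -0.07. For G2KO over G2WT 1 rose and 1 fell, with a median of 0.14. Past 2-fold, 10.6% of all genes rose and 9.63% fell for DKO over G1G2WT. For G2KO over G2WT these shares were 8.73% and 8.39%.

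**Figure D4:**
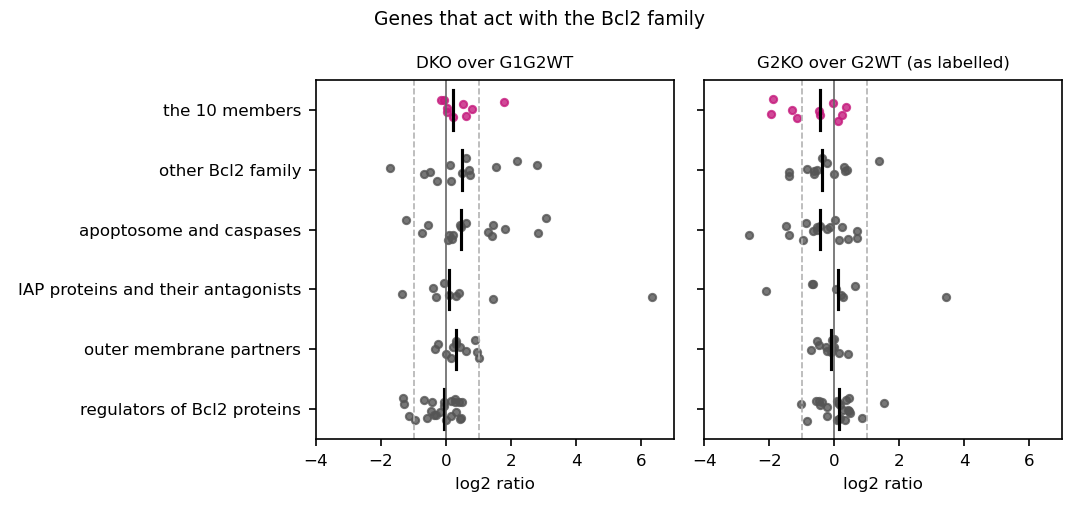
Log2 ratio (horizontal axis) of each gene in the set of 10 and in 5 related lists, for DKO over G1G2WT and G2KO over G2WT, with 1 point a gene, a bar at the median and dashed lines at 2-fold. Points for genes not well above background on 1 of both arrays are limits, among them Naip2 at 6.33. For DKO the medians run from -0.07 for the regulators to 0.50 for the other Bcl2 family genes.

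The pattern of Bmf over the 4 arrays was compared with that of 19459 genes well above background on all of them, by the largest difference between log2 profiles after centring each gene. The nearest genes were LOC552880 (0.27), Rapgef3 (0.33) and Clu (0.41). Rapgef3, which encodes the cyclic AMP sensor Epac1, had a level of 0.274 on G2KO, 0.957 on G2WT, 2.45 on DKO and 0.877 on G1G2WT. Clu, which encodes the secreted chaperone clusterin, had a level of 1.43 on G2KO, 3.34 on G2WT, 11.4 on DKO and 4.96 on G1G2WT. In each DKO was highest and the array labelled G2KO lowest. The likeness rests on 4 arrays and is a description.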

How the data were processed

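Total RNA of the 4 MEF cultures was Cy3-labelled, and each RNA was read on 1 Agilent Whole Mouse Genome array, with all arrays on 1 slide and scanned at 1 time. The authors extracted spot intensity with Agilent Feature Extraction, whose version is 10.7.3.1 per the file headers and 10.5.1.1 per the labels. The processed intensity already carries a background subtraction and a spatial correction for each array. The deposited value table holds the same intensity for every spot (largest log2 difference of 0). The study's methods describe dye-swapped arrays for G2KO, while the labels and files are one-color for all 4.

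Here each array's log2 intensity had its own 75th percentile subtracted (signals of 1589 to 2242), without 1377 control spots and without flagged spots (107 to 140 an array). Spots of a probe were averaged, and the brightest probe stood for a gene. Well-above-background flags are those deposited in the files. A ratio needed a probe well above background on 1 or both of the arrays compared. On a dim array the level was the higher of its own and the lowest signal well above background (11.4 to 19.2), and the ratio is then a limit. The number of arrays limits the precision: a ratio of 1 array to 1 array has no replicate check, so a gene counts as changed past 2-fold. A limma fit with the WT arrays pooled leaves 1 residual degree of freedom and was run as an alternative. The error is Feature Extraction's own. The median SD between repeated spots of a probe was 0.06 to 0.09 on the log2 scale.

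The alternatives were no scaling, scaling to the median, quantile normalization, normexp (offset of 50), the median over a gene's probes, other filters and folds, the other WT array and the mean of both. Exchange of the G2KO and G2WT labels was added after seeing the data. The named genes are the 10 members, Ccng1, Ccng2, Bax, Bbc3, Pmaip1, the genes of each list past 4-fold in a knockout comparison, and the 3 genes most like the member of widest range. A gene that this rule names is not reported here. The members and lists were chosen with earlier results of these data known. Symbols of all 14 member probes matched RefSeq (GRCm38.p6). Probe positions and sequences are those in the files (mm9). Exon annotation of mm9 was not used here. Python 3.11.15, pandas 2.3.3, R 4.3.3 and limma 3.58.1 were used, and the ratio and limma steps were tested on simulated data. The change put into the limma simulation was far larger than any ratio seen here. It was a check of the code and not of the power to find smaller changes.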

Additional observations from a re-analysis of the deposited data

Results flagged for a closer look

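As labelled, Bmf moved in opposite directions in the knockout comparisons, with a log2 ratio of 1.77 for DKO over G1G2WT and of -1.94 for G2KO over G2WT. The difference was not tested. With the labels of the G2KO and G2WT arrays exchanged, the ratio of Bmf for G2KO would be 1.94, in the same direction as for DKO.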

How the results depend on the processing

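The log2 ratio of a member that an alternative altered at all moved by less than the software's error in 49 of 58 cases for DKO over G1G2WT, 39 of 63 for G2KO over G2WT and 34 of 45 for G1G2WT over G2WT. Its sign changed in 9, 10 and 7 of these cases, and 2 of those had been past 2-fold. These were Bcl2l1 at 0.14 and Bik at 0.41 or above for G2KO against G1G2WT. With the G2KO and G2WT labels exchanged, a setting chosen after seeing the data, Bcl2 was at 1.30, Bcl2l1 at 1.15, Bik at 1.90 and Bmf at 1.94 for G2KO. Leaving out the settings that exchange an array, Bmf ranged from 1.64 to 1.85 for DKO and from -1.98 to -1.44 for G2KO. The number of members past the threshold went from 1 to 0 at 4-fold, 3 at 1.5-fold and 3 against G2WT for DKO. For G2KO it went from 4 to 3 with quantile normalization, 2 without scaling, 0 at 4-fold, 1 against G1G2WT and 1 against the mean of both WT arrays. Between the WT arrays it went from 3 to 2 with normexp, without scaling and where both arrays had to be well above background, and to 1 at 4-fold. Over all genes, the counts past 2-fold were 4636, 3900 and 4777 for DKO over G1G2WT, G2KO over G2WT and G1G2WT over G2WT. They were 1849, 1304 and 1632 at 4-fold and 8710, 8535 and 8983 at 1.5-fold. With normexp they were 3047, 2307 and 3183. With no filter on dim probes they were 7019 for DKO and 5932 for G2KO. For G2KO they were 1966 against G1G2WT and 1651 against the mean of both WT arrays. Without scaling, the share of higher calls went from 50.97% to 83.4% for G2KO and from 54.0% to 69.3% between the WT arrays, whose median log2 ratio of all genes went from -0.08 to 0.17. With scaling to the median these last were 40.9% and -0.26. With normexp the median of all genes for DKO went from 0.03 to 0.13. The cause of these shifts was not tested. No paired analysis was possible because each group has 1 array and the labels give no replicate numbers, and leaving out an array would empty its group. Bik was too dim on DKO and G1G2WT for a ratio between them.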
